A study of Mus musculus with 6 samples.

Results

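A chosen list held 10 genes that encode enzymes and shedding factors of the cornified layer and lie outside the epidermal differentiation complex: *Cdsn*, *Casp14*, *Tgm1*, *Tgm3*, *Tgm5*, *Klk5*, *Klk7*, *Klk8*, *Spink5* and *Asprv1*. The list does not hold all such genes on the array. Its genes were found through the RefSeq accessions of the non-control probes, which gave 11 probes for the 10 genes, of 55681 probes and 21368 named genes in all. Expression was measured in primary keratinocytes grown from the skin of newborn mice, whose strain the labels give as 129SvEx:C57BL/6. Per the study's methods this was the mixed background of the floxed line, which was then crossed to a Cre line on FVB/N. The knockout cells lacked *Sox4* (Sox4 cKO), *Sox11* (Sox11 cKO) or both (dcKO), which encode SoxC transcription factors, and per the study's methods the deletion was driven by a *Krt14* promoter Cre, which acts in basal keratinocytes. There were 2 biological replicates of each genotype and so 6 arrays, and each array carried wild-type control RNA in its other channel. In all 3 genotypes Cy5 marked the knockout RNA of replicate 1 and Cy3 that of replicate 2, so a difference between dyes and a difference between replicate numbers cannot be told apart. The methods describe the floxed line as coming from a stock that also lacked *Sox12*. Whether the cells compared here carried that deletion, and whether the wild-type cells carried the Cre, was not given in the sources used here. Nor do the sources state if the wild-type RNA was prepared from 1 culture or from several, so the p-values measure the spread between these arrays. The cells had been grown on fibroblast feeders and were then passaged without them.

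The cornified layer forms when differentiating keratinocytes die in an ordered way and their proteins are crosslinked into an envelope. Transglutaminases (*Tgm1*, *Tgm3*, *Tgm5*) make the crosslinks, while caspase-14 (*Casp14*) and the aspartic protease SASPase (*Asprv1*) act in the processing of filaggrin. The dead cells are held together by corneodesmosin (*Cdsn*) until the kallikrein proteases (*Klk5*, *Klk7*, *Klk8*) cut the junctions and the cells are shed. The inhibitor LEKTI (*Spink5*) restrains some proteases of this family, among them those of *Klk5* and *Klk7*. Loss of LEKTI in people causes Netherton syndrome, a disease of premature shedding.

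The cells carried the defining markers of basal keratinocytes. All 7 (*Krt5*, *Krt14*, *Trp63*, *Itga6*, *Itgb4*, *Cdh1*, *Cdh3*) were well above background in both channels of all 6 arrays. Of the markers of suprabasal and cornifying keratinocytes, *Krt10*, *Ivl* and *Lor* were well above background throughout, while *Krt1* was so in 2 of the 12 channels and in 0 of those on the dcKO arrays. *Flg* had no named probe. Of 8 feeder fibroblast markers, 1 (*Col1a2*) was well above background on all arrays, with a summed level between 7.91 and 8.23 on the log2 scale in every channel. Of 5 melanocyte markers 3 were, and of 6 immune markers 1 was. *Sox4* had a log2 fold change of -2.52 ± 0.04 in Sox4 cKO cells and of -2.52 ± 0.41 in dcKO cells, and *Sox11* had -2.98 ± 0.47 in Sox11 cKO cells and -3.43 ± 0.51 in dcKO cells (SD, n = 2 arrays each).

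The clearest change was that of the inhibitor gene. *Spink5* (probe A_66_P126147) was higher in dcKO than in wild-type cells on both arrays, with log2 ratios of 4.70 and 2.78. It was lower than wild type on the 4 arrays of the single knockouts, with -1.97 and -0.13 in Sox4 cKO cells and -0.93 and -1.41 in Sox11 cKO cells. No dcKO value overlapped with those of either single knockout. The same held for *Cdsn*, *Casp14*, *Tgm1*, *Tgm3*, *Tgm5* and *Klk8*, among them the dim *Tgm5* and *Tgm3*, whose log2 ratios all lay between -0.28 and 0.21. The share of all probes with such a separation was not counted, so the separation is not read as a result. *Spink5* rose in dcKO cells by 3.74 ± 1.36 on the log2 scale (SD, n = 2), which is 13.4-fold (SE of the limma fit 0.51; limma adjusted p = 0.0168). It was the 1 gene of the 10 that was called in dcKO cells, where called means an adjusted p below 0.05 over all probes and an absolute log2 fold change above 1.5. Of all probes, 0.756% were called in that comparison. In Sox4 cKO cells the mean was -1.05 ± 1.30 (limma adjusted p = 0.726) and in Sox11 cKO cells -1.17 ± 0.34 (limma adjusted p = 0.744), and neither was called. The dcKO effect exceeded that of Sox4 cKO by 4.79 on the log2 scale (SE 0.73; limma adjusted p = 0.0423) and that of Sox11 cKO by 4.91 (SE 0.73; limma adjusted p = 0.0462). *Spink5* was the only 1 of the 10 genes called in each of these differences, against 0.562% and 0.449% of all probes. Leaving out dcKO replicate 1 brought the log2 fold change to 2.44, and leaving out dcKO replicate 2 brought it to 5.05. Over the other processing settings the log2 fold change lay between 3.18 and 3.80 and the adjusted p between 0.00359 and 0.25, above the threshold with an offset of 50 and with the scanner software's processed signals. Without the replicate block the differences missed the threshold (limma adjusted p = 0.0651 and 0.0685).

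**Figure D1:**
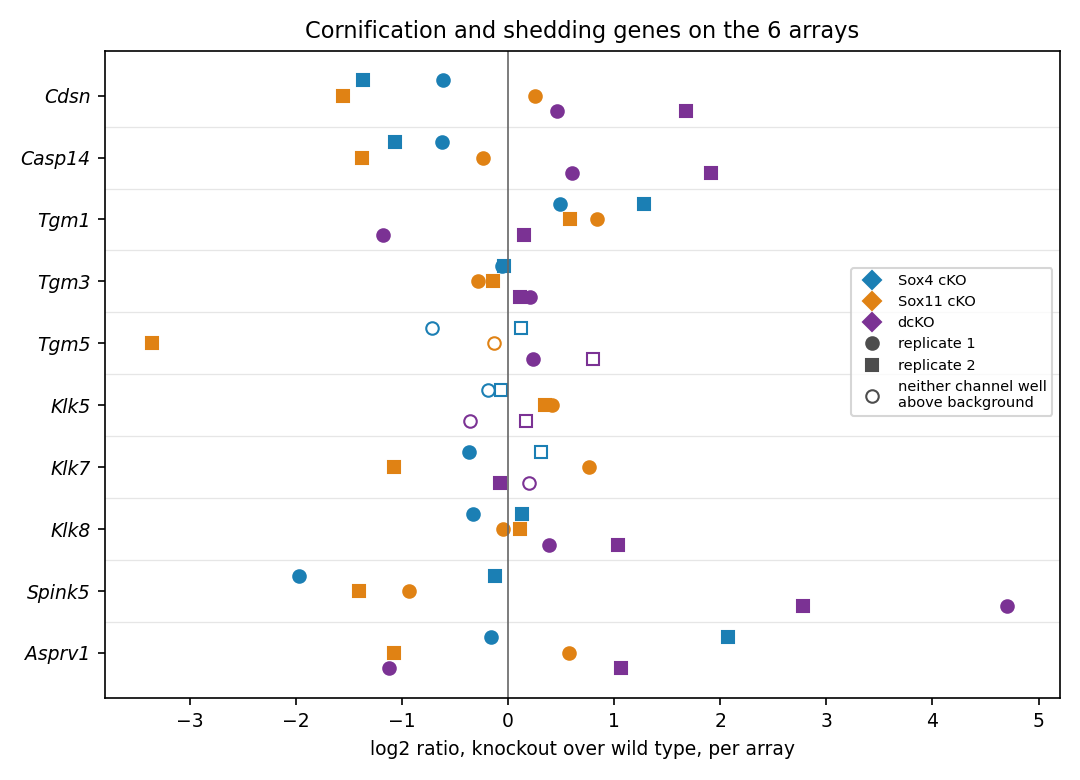
Log2 ratio of knockout over wild type on each of the 6 arrays for the brightest probe of each gene, with colours for the genotypes, circles for replicate 1 and squares for replicate 2. Open symbols mark arrays where neither channel was well above background. *Spink5* lies at 4.70 and 2.78 on the dcKO arrays and below 0 on the other 4.

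Both channels of an array also give a level, here on the log2 scale after normalisation across the channels of all arrays. The dcKO channels held *Spink5* at 13.14 and 12.70, the highest of the 6 knockout channels, and the wild-type channels of the same arrays at 8.43 and 9.92. Those were the lowest of the 6 wild-type channels, since the wild-type channels of the Sox4 cKO arrays read 12.96 and 11.56 and those of the Sox11 cKO arrays 10.15 and 12.83. The dcKO mean level of 12.92 was thus 3.74 above the wild type hybridised with it, at 9.18, and 1.04 above the mean of 11.88 over the wild-type channels of the other 4 arrays. The knockout channels of the single knockouts read 10.99, 11.44, 9.22 and 11.42. The part of low wild-type levels in the *Spink5* rise, and in its differences between dcKO and the single knockouts, was not tested.

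The gene for the junction protein gave opposite directions in the single and the double knockouts, without passing the test. *Cdsn* (probe A_55_P2190994) had log2 ratios of -0.61 and -1.37 in Sox4 cKO cells, 0.25 and -1.56 in Sox11 cKO cells and 0.46 and 1.67 in dcKO cells. It was below wild type on both Sox4 cKO arrays and above it on both dcKO arrays, while the Sox11 cKO arrays were split. The means were -0.99 ± 0.53, -0.65 ± 1.28 and 1.07 ± 0.86 (SD, n = 2 each; limma adjusted p = 0.674, 0.896 and 0.337), and the difference between dcKO and Sox4 cKO of 2.06 (SE 0.60) was not called either (limma adjusted p = 0.212). Without dcKO replicate 2 the dcKO value was -0.18. Knockout levels of *Cdsn* were 11.98, 12.19, 11.49 and 11.83 in the single knockouts and 9.49 and 12.09 in dcKO cells. Wild-type levels were 12.59, 13.56, 11.24 and 13.39 on the single knockout arrays but 9.03 and 10.42 on the dcKO arrays. The dcKO mean of 10.79 lay above its own wild type, at 9.73, and below the mean of 12.70 over the wild-type channels of the other arrays.

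*Casp14* (probe A_55_P2064063) pointed the same way as *Cdsn* on every array except Sox11 cKO replicate 1. Its log2 ratios were -0.62 and -1.07 in Sox4 cKO cells, -0.23 and -1.38 in Sox11 cKO cells and 0.60 and 1.91 in dcKO cells. All 4 single knockout values were below 0 and both dcKO values above it. The means were -0.85 ± 0.31, -0.81 ± 0.81 and 1.25 ± 0.93 (SD, n = 2 each), none of which was called (limma adjusted p = 0.672, 0.748 and 0.159). The dcKO effect exceeded that of Sox4 cKO by 2.10 and that of Sox11 cKO by 2.06 (SE 0.51 each; limma adjusted p = 0.139 and 0.165). The wild-type levels were again lowest on the dcKO arrays, at 5.39, which was not well above background, and 6.03, against 6.11 to 8.41 on the other arrays. The knockout levels of dcKO cells were 5.99 and 7.94, within that range apart from the lower one.

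**Figure D2:**
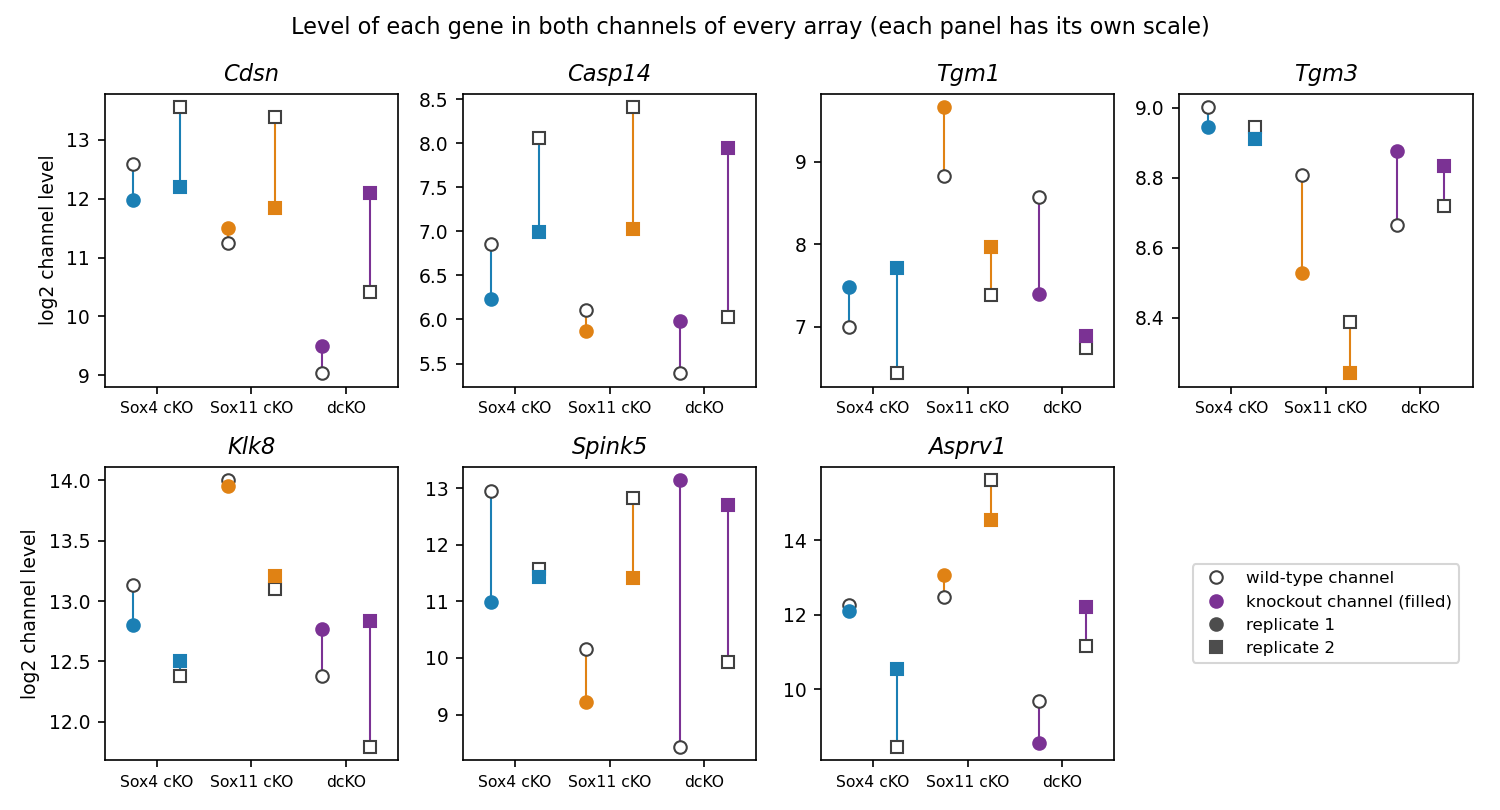
Log2 level in the wild-type channel (open) and knockout channel (filled) of each array for the 7 genes well above background in at least 1 channel of every array, with a line joining the channels of an array. *Spink5*, *Cdsn* and *Casp14* have their lowest wild-type levels on the dcKO arrays, and *Tgm3* stays within a range of 0.62 in the wild-type channels.

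The stretches just upstream of *Cdsn*, *Casp14*, *Asprv1* and *Klk8* are shown with the letters searched in them. Windows of the other genes were searched as well but are not printed. RefSeq windows on GRCm38.p6 were given for 9 of the 10 genes, all but *Spink5*, as 11 windows because *Cdsn* and *Tgm1* have more than 1 start. Both strands of the 250 bases before the start were searched for a SOX core (ACAAAG), an AP-1 site (TGANTCA), a grainyhead-like core (AACNGGTT) and an AP-2 site (GCCNNNGGC), with capitals in the sequences marking a match.

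Cdsn, chr17:35551878-35552127, plus strand: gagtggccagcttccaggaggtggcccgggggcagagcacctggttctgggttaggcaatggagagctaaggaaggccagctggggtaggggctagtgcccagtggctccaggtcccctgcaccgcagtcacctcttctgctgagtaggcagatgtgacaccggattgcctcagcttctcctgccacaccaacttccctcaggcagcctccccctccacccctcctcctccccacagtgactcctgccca

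Casp14, chr10:78718294-78718543, minus strand: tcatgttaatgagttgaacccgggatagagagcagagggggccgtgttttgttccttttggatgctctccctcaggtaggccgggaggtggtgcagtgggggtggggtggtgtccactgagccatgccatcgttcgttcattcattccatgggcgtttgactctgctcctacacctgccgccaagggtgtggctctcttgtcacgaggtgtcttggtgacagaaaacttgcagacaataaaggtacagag

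Asprv1, chr6:86627924-86628173, plus strand: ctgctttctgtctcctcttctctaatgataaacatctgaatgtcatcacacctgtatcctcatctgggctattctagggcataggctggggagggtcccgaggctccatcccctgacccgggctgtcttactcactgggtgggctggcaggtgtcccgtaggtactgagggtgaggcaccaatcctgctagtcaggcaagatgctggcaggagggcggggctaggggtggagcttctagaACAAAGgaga

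Klk8, chr7:43797327-43797576, plus strand: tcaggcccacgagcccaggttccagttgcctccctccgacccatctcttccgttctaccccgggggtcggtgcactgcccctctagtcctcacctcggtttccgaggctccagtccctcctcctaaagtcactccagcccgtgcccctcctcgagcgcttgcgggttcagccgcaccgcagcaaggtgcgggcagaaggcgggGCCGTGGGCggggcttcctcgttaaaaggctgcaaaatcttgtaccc

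Neither *Cdsn* nor *Casp14* held a match. *Asprv1* held the SOX core, which begins 10 bases before its start, and *Klk8* an AP-2 site 47 bases before its own. Among the 11 windows, 2 held the SOX core (*Asprv1* and *Tgm3*) against 16.5% of all 32851 windows, and 1 held an AP-2 site against 13.7%. The AP-1 and grainyhead-like letters were in 0 of the 11, and in 6.75% and 1.79% of all windows. These are matches of letters and not measured binding.

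None of the kallikreins of the list, which cut the junctions, was called in any genotype. *Klk8* (probe A_52_P216672) was the bright one, with log2 ratios of -0.33 and 0.13 in Sox4 cKO cells, -0.05 and 0.11 in Sox11 cKO cells and 0.39 and 1.04 in dcKO cells. Both dcKO values lay above those of the single knockouts. The dcKO mean of 0.71 ± 0.46 (SD, n = 2) was not called (SE 0.16; limma adjusted p = 0.0734). It was 0.18 (limma adjusted p = 0.655) with arrays centred on their median, and had a limma adjusted p of 0.00886 with the authors' table and 0.0265 without either Sox11 cKO array, under the fold limit each time. *Klk5* (probe A_55_P2170169) and *Klk7* (probe A_52_P538490) were dim, being well above background in 3 and 5 of the 12 channels. In dcKO cells their log2 ratios were -0.35 and 0.17 for *Klk5* and 0.19 and -0.07 for *Klk7*, with opposite signs on the replicates, and in the dcKO RNA both stayed below the level called well above background. *Klk5* was well above background in neither channel of the Sox4 cKO arrays, and *Klk7* was so in 1 wild-type channel of them, with log2 ratios of -0.37 and 0.31 (limma adjusted p = 0.994). For Sox11 cKO cells *Klk5* gave 0.41 and 0.35, and *Klk7* gave 0.76 and -1.08. Neither was called there (limma adjusted p = 0.725 and 0.991).

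Among the crosslinking enzymes, *Tgm1* and *Tgm3* could be measured on all arrays. *Tgm1* (probe A_52_P627816), the membrane-bound transglutaminase, had log2 ratios of 0.49 and 1.28 in Sox4 cKO cells, 0.84 and 0.59 in Sox11 cKO cells and -1.18 and 0.15 in dcKO cells. All 4 single knockout values were above both dcKO values, the order opposite to that of *Spink5* and *Casp14*. The means were 0.88 ± 0.56, 0.71 ± 0.18 and -0.51 ± 0.94 (SD, n = 2 each; limma adjusted p = 0.472, 0.591 and 0.476), and dcKO minus Sox4 cKO was -1.40 (SE 0.36; limma adjusted p = 0.158). *Tgm3* (probe A_55_P2163493), the epidermal transglutaminase of the cytosol, was the steadiest of the 10 genes, with 6 log2 ratios between -0.28 and 0.21 (limma adjusted p = 0.974, 0.905 and 0.772). Its second, dim probe (A_51_P495560) instead followed the dyes, at 0.59, 0.57 and 0.29 on the replicate 1 arrays and -0.61, -0.49 and -0.74 on the replicate 2 arrays. Its dye coefficient was 0.55 (SE 0.08; limma adjusted p = 0.0723), short of the threshold. *Tgm5* (probe A_55_P1958487) was well above background in 4 of 12 channels. It gave -0.72 and 0.12 in Sox4 cKO cells, -0.13 and -3.35 in Sox11 cKO cells and 0.24 and 0.80 in dcKO cells, so that the -3.35 stood alone. On that array the wild-type channel read 8.67, against 4.56 to 6.10 in the wild-type channels of the other 5, and the Sox11 cKO mean of -1.74 ± 2.28 was not called (limma adjusted p = 0.576). Without Sox11 cKO replicate 1 it was -3.70 (limma adjusted p = 3.88e-05), and without replicate 2 it was 0.22.

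*Asprv1* (probe A_51_P499698) had the widest range of levels of the 10 genes, and its replicates gave opposite signs in every genotype. The log2 ratios were -0.16 and 2.07 in Sox4 cKO cells, 0.58 and -1.08 in Sox11 cKO cells and -1.12 and 1.06 in dcKO cells. The means of 0.96 ± 1.58, -0.25 ± 1.17 and -0.03 ± 1.54 (SD, n = 2 each) were all smaller than their SD (limma adjusted p = 0.794, 0.991 and 0.995). Its wild-type levels were 12.27, 8.46, 12.49, 15.61, 9.68 and 11.16, in the order Sox4 cKO, Sox11 cKO and dcKO arrays with replicate 1 first. That is a range of 7.15 on the log2 scale among cells that all carry the same label. The knockout levels of *Asprv1* were 12.11, 10.54, 13.06, 14.53, 8.57 and 12.22 in the same order, and both channels were highest on Sox11 cKO replicate 2. Taken without Sox11 cKO replicate 1, *Asprv1* was called lower in Sox11 cKO cells, at -2.18 (limma adjusted p = 0.000942), and without replicate 2 it was called higher, at 1.68 (limma adjusted p = 0.0201). In those fits the remaining array is assumed to vary like the other genotypes.

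Across the 10 genes, 0 were called in Sox4 cKO cells and 0 in Sox11 cKO cells by limma, where 0.142% and 0.0862% of all probes were. At an unadjusted p below 0.05 there were 2 genes in Sox4 cKO (7.4% of all probes), 3 in Sox11 cKO (6.84%) and 4 in dcKO cells (13%). The difference between Sox4 cKO and Sox11 cKO was called for 0 genes, also 0 at an unadjusted p below 0.05 (6.35% of all probes), and for 0.0108% of all probes. The median log2 fold change of the 10 genes was -0.12 in Sox4 cKO, -0.23 in Sox11 cKO and 0.34 in dcKO cells, and over all probes it was 0.0015, -0.0017 and -0.0041. Each of the medians of the 10 genes changed sign when 1 array of its genotype was left out, with ranges of -0.36 to 0.22, -1.28 to 0.30 and -0.14 to 0.90. The Sox4 cKO median was -0.64 with processed signals. Centring arrays on their median in place of loess gave a dcKO median of 0.13, and moved the dcKO values of *Cdsn* to 0.51, of *Tgm1* to -0.91 and of *Asprv1* to -0.59. Both Sox4 cKO arrays gave 1 gene above wild type and 5 below it. Both Sox11 cKO arrays had 2 above and 4 below, and in dcKO cells 6 were higher and 0 lower on both, among them *Tgm3*, whose dcKO mean of 0.16 turned to -0.34 with that centring. The remaining 4 genes of each genotype had opposite signs, against 51.2%, 55.5% and 44.5% of all probes. Of all probes, 24.2%, 22.2% and 27.4% were higher on both arrays and 24.6%, 22.2% and 28.1% lower.

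The replicates of a genotype differed widely for these genes. The genes were chosen with earlier results of these data known, so the shares of all probes beside them give a scale and no test. Of the 7 genes well above background in at least 1 channel of every array, 5 differed by more than 1 on the log2 scale between the dcKO replicates (*Cdsn*, *Casp14*, *Tgm1*, *Spink5* and *Asprv1*), against 5.38% of all probes with that signal. In Sox11 cKO cells 3 did (*Cdsn*, *Casp14* and *Asprv1*), against 14.5%, and in Sox4 cKO cells 2 (*Spink5* and *Asprv1*), against 7.39%. The median size of the difference over the 7 genes was 0.75 in Sox4 cKO, 0.48 in Sox11 cKO and 1.31 in dcKO cells, and over all such probes it was 0.35, 0.43 and 0.29. Replicate 1 gave the higher ratio in 2 of the 10 genes in Sox4 cKO, 8 in Sox11 cKO and 3 in dcKO cells. *Klk8* was the 1 gene with the same direction in all 3 genotypes, with replicate 1 minus replicate 2 at -0.46, -0.16 and -0.65 on the log2 scale. The dye term, which is the difference between replicate numbers common to all genotypes, was called for 0 of the 10 genes by limma (1 at an unadjusted p below 0.05, against 13.4% of all probes) and for 0.0162% of all probes.

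**Figure D3:**
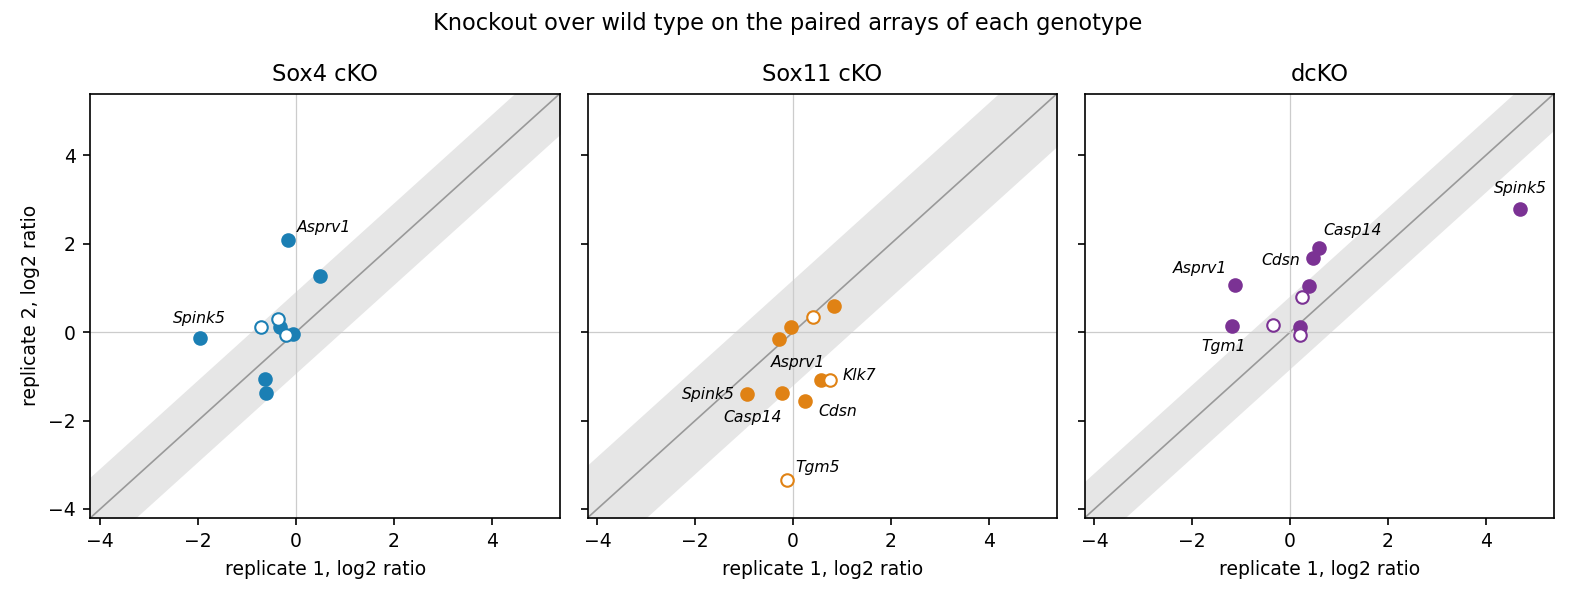
Log2 ratio on replicate 2 against replicate 1 for the 10 genes in each genotype, with the diagonal marking equal values and the grey band holding 90% of the probes well above background. Open symbols are the 3 dim genes. Named are *Spink5* and the genes whose replicates differ by more than 1, which are 2 in Sox4 cKO, 5 in Sox11 cKO and 5 in dcKO cells.

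The spread lay in both channels and was mostly larger in the wild-type one. Here too the choice of genes with earlier results known makes the shares of all probes a scale and no test. For all 7 genes the wild-type level differed more between the Sox4 cKO arrays than the knockout level did, and the same held for 6 of 7 on the Sox11 cKO arrays and 4 of 7 on the dcKO arrays. The share of all probes for which this held was not counted. Over all such probes the median difference was also larger in the wild-type channel on the Sox4 cKO and Sox11 cKO arrays, but not on the dcKO arrays. The median wild-type difference between replicates was 0.97, 2.15 and 1.39 for these genes in Sox4 cKO, Sox11 cKO and dcKO arrays, and 0.28, 0.39 and 0.25 for all such probes. The median knockout difference was 0.30, 1.16 and 0.50 for these genes, and 0.24, 0.32 and 0.27 for all such probes. Over the 6 arrays, the wild-type level of 6 of the 7 genes spanned more than 2 on the log2 scale, against 6.78% of all such probes, and *Tgm3* was the exception at 0.62. The knockout level of 5 of the 7 spanned as much, against 6.17% of all such probes. The wild-type channel of Sox11 cKO replicate 2 held the highest of the 6 levels for 5 of the 10 genes (*Casp14*, *Tgm5*, *Klk5*, *Klk7* and *Asprv1*). On that array all 10 genes were well above background in both channels, against 42.9% of all probes in the knockout and 41.8% in the wild-type channel. The median log2 ratio of the 10 genes was -1.08 there and 0.10 on replicate 1. The wild-type channel of dcKO replicate 1 held the lowest level for 4 genes (*Cdsn*, *Casp14*, *Klk7* and *Spink5*). How often these arrays held the highest or lowest level over all probes was not counted. In such bulk samples fewer cornifying cells and less RNA per cell cannot be told apart, and wild-type channels also differ in dye between replicate numbers. The summed level of *Krt1*, *Krt10*, *Ivl* and *Lor*, which mark suprabasal cells, was 10.80 in the wild-type channel of Sox11 cKO replicate 2, where it was highest, and 9.40 in that of dcKO replicate 1. It was lowest, at 9.16, in the wild-type channel of Sox11 cKO replicate 1, and 10.66, 10.68 and 10.14 in those of Sox4 cKO replicates 1 and 2 and dcKO replicate 2. In the knockout channels it lay between 9.37 and 10.21. The part of suprabasal cell share in these results was not tested.

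Other genes of the same pathways were counted from lists of further kallikreins, transglutaminases, proteases with their inhibitors, filaggrin processing enzymes, junction partners and envelope proteins. Of the 56 list genes with a probe, 0 passed limma's adjusted threshold in either single knockout, although 5 of them had an unadjusted p below 0.05 in Sox4 cKO cells (7.4% of all probes) and 13 did in Sox11 cKO cells (6.84%), beside 18 in dcKO cells (13%). In dcKO cells 5 passed the adjusted threshold and 2 of these were called. Of all probes, 0.178% passed that threshold in Sox4 cKO, 0.124% in Sox11 cKO and 2.06% in dcKO cells. The first called gene was *Cst6*, which encodes cystatin M/E, an inhibitor of cathepsins and legumain in the cornifying epidermis. It gave 1.53 and 2.24 on the dcKO arrays and negative values, between -0.24 and -1.55, on the 4 single knockout arrays. In dcKO cells *Cst6* rose by 1.89 ± 0.51 (SD, n = 2; limma adjusted p = 0.033), but its difference between dcKO and Sox4 cKO or Sox11 cKO did not pass (limma adjusted p = 0.0726 and 0.0598). As for *Spink5*, its wild-type levels on the dcKO arrays, 10.47 and 10.72, lay under those of the other 4 arrays, 12.16 to 13.42, and the dcKO levels of 12.00 and 12.96 did not exceed the highest of them.

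The second called gene was *Tgm2*, the widely expressed tissue transglutaminase. It was above wild type on all 6 arrays, with 0.68 and 1.40 in Sox4 cKO, 1.28 and 1.30 in Sox11 cKO and 1.06 and 2.35 in dcKO cells. In dcKO cells *Tgm2* rose by 1.71 ± 0.91 (SD, n = 2; limma adjusted p = 0.0127), and the dcKO levels of 13.77 and 14.25 were above all wild-type channels, 10.60 to 12.71. So were the levels of Sox11 cKO cells, 13.40 and 12.75, and of Sox4 cKO replicate 2, 13.06, but not that of Sox4 cKO replicate 1, 11.28. The effect was not called in the single knockouts (limma adjusted p = 0.244 and 0.128), and its difference between dcKO and either of them did not pass (limma adjusted p = 0.46 and 0.766).

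The other 3 were lower and passed the adjusted threshold without reaching the fold limit. *Klk10*, a kallikrein, fell by 1.45 on the log2 scale in dcKO cells (limma adjusted p = 0.0499), with -1.74 and -1.16. *Padi4*, a peptidylarginine deiminase, gave -1.42 and -1.46 (limma adjusted p = 0.0169), and *Ctsc*, cathepsin C, gave -1.76 and -0.55 (limma adjusted p = 0.0453). The dcKO levels of all 3 lay within the range of the wild-type channels of the other arrays. Their differences between dcKO and Sox4 cKO or Sox11 cKO did not pass (limma adjusted p = 0.0881 and 0.652 for *Klk10*, 0.108 and 0.129 for *Padi4*, 0.0849 and 0.177 for *Ctsc*). *Klk10* was also lower on both Sox11 cKO arrays, at -0.57 and -0.95, and split on the Sox4 cKO arrays, at -0.22 and 1.23. Each of the 5 genes lost the threshold with an offset of 50, with processed signals and without either dcKO array. With arrays centred on their median neither of the higher genes was called, *Cst6* being at 1.32 (limma adjusted p = 0.0658) and *Tgm2* at 1.18, under the fold limit, while the 3 lower genes passed both limits at -1.94 (*Klk10*), -1.85 (*Padi4*) and -1.63 (*Ctsc*). *Klk10* also missed the threshold with the filter on dim probes (limma adjusted p = 0.0516) and *Ctsc* without either Sox4 cKO array (0.0843). Without the replicate block *Tgm2* (limma adjusted p = 0.0526), *Klk10* (0.106) and *Ctsc* (0.146) also missed it.

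By list, the dcKO medians lay close to 0 apart from junction partners and envelope proteins. Of all probes, 27.4% were higher and 28.1% lower on both dcKO arrays, and 13% had an unadjusted p below 0.05 in limma. The 10 further kallikreins had a median of -0.17, with 0 higher and 6 lower on both arrays and 1 (*Klk10*) past the adjusted threshold. Only 3 of these 10 were well above background in a channel of every array. *Klk6* gave -1.32 and -0.02 (limma adjusted p = 0.746), and its dcKO RNA was not well above background on either array. Its bound of 1.59-fold lower in dcKO cells equals the plain mean of the arrays. With almost no change on replicate 2, it is not a minimum of the effect. The 5 other transglutaminases had a median of 0.17, with *Tgm4* at 0.46 and -0.30. The 12 proteases and inhibitors had a median of -0.08, with 4 higher and 5 lower on both arrays. The 8 filaggrin processing genes had a median of 0.14, with *Padi3* at 1.01 and 1.23 (limma adjusted p = 0.0553). The 8 junction partners had a median of 0.41, 6 of them higher on both arrays and 0 past the threshold (1 at an unadjusted p below 0.05). The 4 that were not well above background in a channel of every array had 1.59 (*Dsg1a*), 0.97 (*Dsg1b*), 0.95 (*Dsg1c*) and 0.20 (*Dsc1*), and the 4 that were had 0.49 (*Perp*), 0.34 (*Jup*), -0.09 (*Pkp1*) and -0.10 (*Dsp*). On the replicates *Perp* gave 0.12 and 0.86 and *Jup*, plakoglobin, 0.10 and 0.58. The 13 envelope proteins had a median of 0.37, with 6 higher and 1 lower on both arrays. *Sbsn*, suprabasin, gave 0.82 and 1.72 (limma adjusted p = 0.2) and *Lor*, loricrin, -0.94 and -1.56 (limma adjusted p = 0.122), so that envelope genes pointed both ways.

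**Figure D4:**
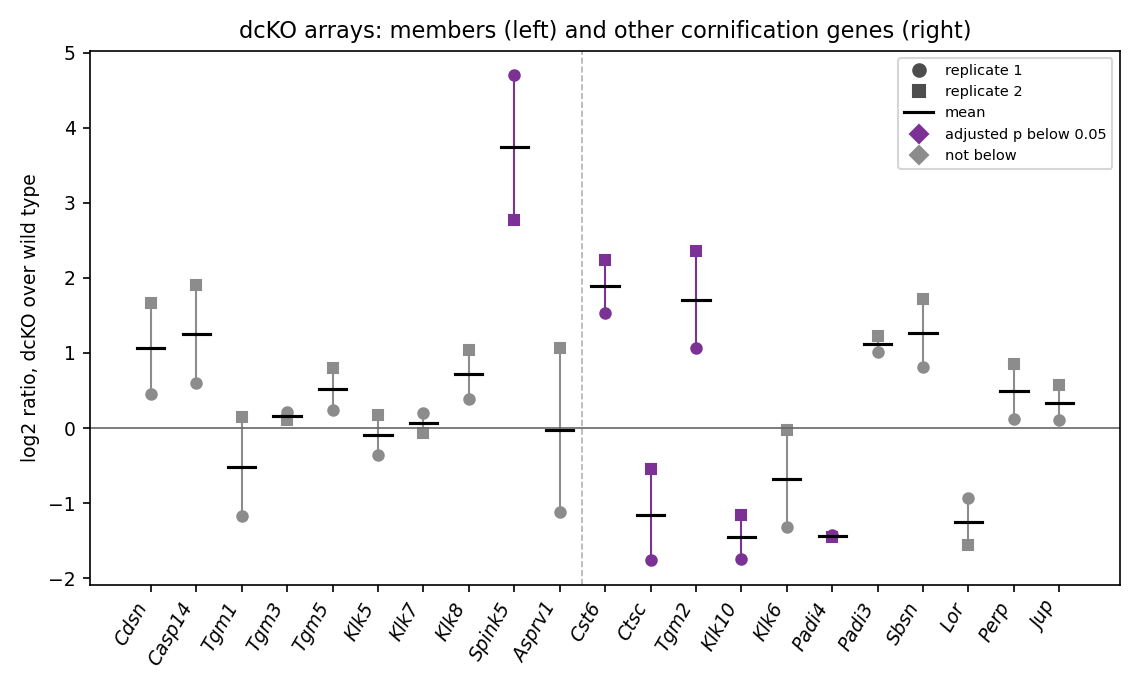
Log2 ratio of dcKO over wild type on replicate 1 (circles) and replicate 2 (squares), with the mean as a black bar, for the 10 genes (left of the dashed line) and further cornification genes (right). Purple marks an adjusted p below 0.05 in limma, which *Spink5*, *Cst6*, *Ctsc*, *Tgm2*, *Klk10* and *Padi4* had.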

How the data were processed

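The members of the list, and the lists of other genes beside it, were chosen with earlier results of these data known. RNA was hybridised to 2-colour Agilent arrays. The authors deposited spot intensity values per channel, made with Agilent Feature Extraction 11.0.1.1 per the labels. These median spot and background intensity values were not normalised. The deposited files also hold processed intensity values, which the software had background subtracted and dye normalised, and the authors' table of log2 ratios, made per the study's methods with an offset, loess and removal of a dye effect. Both served as alternatives only. The table's ratios ran in the direction of knockout over wild type on each array, with correlations between 0.89 and 0.952 to the ratios used here.

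Analysis used R 4.3.3 and limma 3.58.1. Background was corrected with normexp and an offset of 16, and 3671 of 62976 spots were then left out as controls. Outlier spots (364 to 551 per array) were set to missing, and no spot was saturated. After loess within arrays, spots were averaged to 55681 probes. limma's lmFit and eBayes were fitted to all probes and 6 arrays, with an effect for each genotype (its sign reversed where the dyes were swapped) and a shared dye term, which here equals a replicate block. That left 2 residual degrees of freedom, with 5.37 from the prior. Called means a Benjamini-Hochberg adjusted p below 0.05 over all probes and an absolute log2 fold change above 1.5, or a dye coefficient above 0.75. Channel levels were taken after loess and Aquantile normalisation. The fit was tested on simulated data. The replicate numbers paired the arrays, with correlations of deviations from genotype means of 0.316, 0.244 and 0.125 and a shared dye orientation. Between 35.2% and 45.1% of probes were well above background in a channel, and the number of arrays limits the precision.

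Probes were named by RefSeq accession through a GRCm38.p6 table, which matched 95.1% of 29786 such probes. The brightest probe of a gene was reported. All 10 members were named, and from the other lists the genes past the adjusted threshold plus, in each pathway list, the pair with the largest dcKO change among those above background. A gene not well above background in a group was given a bound, the brighter mean against the higher of the dimmest detected signal and its own. Alternatives were an offset of 50, processed signals, median centring, no replicate block, the authors' table, a filter on dim probes, the mean over probes and leaving out each array. Mean spot signals, planned as another, were not used here.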

Additional observations from a re-analysis of the deposited data

Results flagged for a closer look

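The effect on *Spink5* differed between genotypes in a test of the difference itself. The log2 fold change in dcKO cells exceeded that in Sox4 cKO cells by 4.79 (limma adjusted p = 0.0423) and that in Sox11 cKO cells by 4.91 (limma adjusted p = 0.0462). Both dcKO arrays were above wild type and all 4 single knockout arrays below it. Each ratio was taken against the wild-type channel of its own array, so levels in both channels enter these differences. Wild-type channels held *Spink5* at a mean log2 level of 9.18 beside dcKO RNA. This compares with 12.26 (Sox4 cKO arrays) and 11.49 (Sox11 cKO arrays). Mean knockout levels were 12.92, 11.21 and 10.32, respectively. The part of the wild-type levels in both differences was not tested. Over the processing settings other than leaving out an array, the adjusted p lay between 0.00848 and 0.343 for the first difference and between 0.00968 and 0.393 for the second.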

How the results depend on the processing

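The single call in dcKO cells and those in the differences between dcKO and each single knockout, *Spink5* in all 3, were lost in all 3 with an offset of 50 and with processed signals (0 genes called each). The calls in both differences were also 0 with no replicate block and with the filter on dim probes, under which 7 genes were tested. With no replicate block the adjusted p of *Spink5* was 0.0218 in dcKO cells, 0.0651 against Sox4 cKO and 0.0685 against Sox11 cKO. Leaving out the block changed no other call of the 10 genes, and of the *Sox* genes *Sox11* missed the threshold in Sox11 cKO cells (limma adjusted p = 0.0973). There were 2 genes called in dcKO minus Sox4 cKO with median centring and with the authors' table, and 2 in dcKO minus Sox11 cKO with the authors' table. The cause was not tested. Processed signals moved the median of all probes by 0.135 in dcKO cells. Over the leave-one-out fits the number of genes called was 0 in all for Sox4 cKO, 0 to 2 for Sox11 cKO, 0 to 1 for dcKO and 0 to 3, 0 to 5 and 0 to 2 for dcKO minus Sox4 cKO, dcKO minus Sox11 cKO and Sox4 cKO minus Sox11 cKO. For the dye term it was 0 to 1. Without Sox11 cKO replicate 1 or 2 the counts were highest, and without either dcKO array those for dcKO were 0. Leaving out 1 array of a genotype turned the direction of single genes, which gave log2 fold changes over the leave-one-out fits of -1.38 to 0.79 (*Tgm5*), -0.90 to 0.84 (*Klk7*), -2.57 to 0.47 (*Spink5*) and -0.027 to 1.94 (*Asprv1*) in Sox4 cKO cells, of -1.67 to 0.37 (*Cdsn*), -3.70 to 0.22 (*Tgm5*), -1.18 to 0.87 (*Klk7*), -0.17 to 0.23 (*Klk8*) and -2.18 to 1.68 (*Asprv1*) in Sox11 cKO cells, and of -0.18 to 2.31 (*Cdsn*), -1.04 to 0.015 (*Tgm1*), -0.36 to 1.39 (*Tgm5*), -0.34 to 0.15 (*Klk5*), -0.096 to 0.22 (*Klk7*) and -0.97 to 0.92 (*Asprv1*) in dcKO cells. Otherwise direction turned, from a mean near 0, for *Asprv1* in dcKO cells with an offset of 50 (0.0046), for *Klk7* in Sox11 cKO (0.31) and dcKO cells (-0.11) and *Klk5* in dcKO cells (0.0051) with processed signals, and with median centring for *Tgm3* (0.024) and *Klk7* (0.016) in Sox4 cKO and *Tgm3* (-0.34) and *Klk5* (0.0096) in dcKO cells. The mean over probes gave *Tgm3* -0.032 in dcKO cells. The 2 arrays per genotype and the dim signal of *Tgm5*, *Klk5* and *Klk7* limit what can be read.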
